A study of Mus musculus with 18 samples.

Results

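The collagen genes of the mouse were followed through 3 metabolic tissues of mice on a high-salt diet. They were taken by symbol, as every gene named Col, a type number, the letter a and a chain number, and 44 of the 21899 genes in the deposited table met this rule. By the kind of structure their chains build, 11 were fibrillar, 8 belonged to basement membranes (6 type IV chains and the 2 multiplexins *Col15a1* and *Col18a1*) and 25 were of other classes. All mice were wild-type male C57BL/6 animals aged 18 weeks. The control (CON) group received chow and tap water, and the high-salt diet (HSD) group received a diet high in NaCl with saline to drink for 12 weeks. RNA of liver, epididymal white adipose tissue (eWAT) and muscle was sequenced, with 3 CON and 3 HSD libraries for each tissue. Each library came from 1 mouse, and 3 of the 4 CON mice and 3 of the 4 HSD mice gave more than 1 tissue. The labels name muscle only, and the study's methods name the quadriceps. Libraries are named here by mouse and tissue (L, liver; W, eWAT; M, muscle), so that CON16M is the muscle of CON mouse 16.

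Collagens are secreted as helices wound from alpha chains and are the main proteins of the extracellular matrix. The fibrillar types I, III and V assemble into the fibers that give tissues tensile strength, whereas type IV chains form the sheet-like network of basement membranes beneath epithelia and endothelia and around adipocytes and muscle fibers. Type VI forms beaded microfilaments that lie close to basement membranes, and the FACIT collagens sit on the surface of fibrils. In adipose tissue and muscle, fibroblasts and related stromal cells make most of the fibrillar chains, and in liver the stellate cells do so, while hepatocytes are known to make type XVIII collagen.

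Collagen genes often lie in pairs, and the pair structure of type IV matters for reading the values below. *Col4a1* and *Col4a2* are on chromosome 8 with their starts facing each other, and their annotated spans overlap by 22 bases. *Col4a3* and *Col4a4* face each other in the same way on chromosome 1, with 71 bases between their starts, and so do *Col4a5* and *Col4a6* on chromosome X, with 1308 bases between them. *Col6a1* and *Col6a2* are on the same strand of chromosome 10, and *Col6a4*, *Col6a5* and *Col6a6* are on the same strand of chromosome 9. The library kit keeps strand, but the setting used for counting is not given in the sources used here, so reads from the overlapping ends of *Col4a1* and *Col4a2* may not have been separated. The sequences shown come from RefSeq on build GRCm38.p6. The first is the window of 250 bases before the start of *Col3a1* (chr1:45311288-45311537, plus strand), shown because *Col3a1* was the collagen gene with a called diet difference, and capitals mark a TATAAA, on the printed strand, at positions −117 to −112 from the start. The second is the whole stretch between the starts of *Col4a4* and *Col4a3* (chr1:82586850-82586920, printed on the minus strand, that of *Col4a4*), shown because both genes of the pair are reported below, with no part marked.
Col3a1: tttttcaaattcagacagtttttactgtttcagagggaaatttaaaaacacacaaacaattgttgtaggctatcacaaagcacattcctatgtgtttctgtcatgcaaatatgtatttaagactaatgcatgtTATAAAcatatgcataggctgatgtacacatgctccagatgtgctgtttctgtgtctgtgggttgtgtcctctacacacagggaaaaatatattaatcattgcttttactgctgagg
Col4a3/Col4a4 gap: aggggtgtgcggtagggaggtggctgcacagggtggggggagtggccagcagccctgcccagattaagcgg
RefSeq windows of this size were matched for 35 of the collagen genes, 38 windows in all. TATAAA, searched on both strands, was in 5 of them (13.16%) and in 12.37% of the 32851 windows of all genes. CCAAT was in 13 (34.21%, against 33.85% of all) and GGGCGG in 22 (57.89%, against 32.74%). These are counts of letters in a window and not of bound sites.

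The deposited values are FPKM, in which the fragments of a gene are scaled by its length and by the size of the library. For 41 of the 44 collagen genes, the FPKM came out as whole fragments at the annotated exon length in all 18 libraries, and for *Col5a1*, *Col13a1* and *Col25a1* at another length. The libraries held 7628071 to 16637489 fragments. Groups were compared with limma after adding 0.5 to each FPKM and taking log2, and genes whose mean reached 0.5 FPKM in the libraries of the fit were tested. A gene was counted as differentially expressed (a DEG) when its p, adjusted over all genes tested by the Benjamini-Hochberg method, was under 0.05 and its log2 fold change was at least 1 in size. On this scale the change of low genes is understated. With 3 mice in each group, the smallest p of an exact permutation test is 0.1, and all p-values measure the spread between these mice. Background shares in brackets give the percentage of all tested genes that met the same rule.

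A pair of libraries stood apart by RNA of other tissues. In HS3W, an eWAT library, the summed level of 10 epididymal epithelium markers was 18960.9 FPKM, against 1.25 to 13.7 in the other eWAT libraries. Its fibroblast marker sum (180.4 FPKM, others 360.7 to 549.7), endothelial sum (152.5, others 393.1 to 501.1) and adipocyte sum (7515, others 17673 to 24339) were the lowest of the tissue. In CON16L, a liver library, the sum of 10 skeletal muscle markers was 4857 FPKM, against 2.46 to 5.92 in the other liver libraries. The labelled tissues otherwise carried their defining markers, with hepatocyte sums of 12717 to 64824 FPKM in liver, adipocyte sums as above in eWAT and skeletal muscle sums of 55853 to 70620 in muscle. Male germ cell markers summed to 610.5 FPKM in HS2W and 302.1 in HS3W, against 0.327 to 50.9 in the other eWAT libraries. Mitochondrially encoded genes took 15.4% to 60.8% of the fragments of a liver library. The heat maps and tables of the study do not use CON16L, HS5L and HS5W. All 18 libraries are used here. The main diet differences of collagen genes are also given without HS3W in eWAT and without CON16L in liver. The tissue comparisons and the tests of shares are given with these libraries included.

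Collagen RNA was most abundant in eWAT. Over all 44 genes, collagens took 0.750% ± 0.058 of the fragments of CON eWAT (mean ± SD, n = 3), 0.136% ± 0.021 of CON muscle and 0.133% ± 0.017 of CON liver. The totals include mitochondrial fragments, which were 3.99% to 4.34% in CON eWAT, 12.3% to 16.5% in CON muscle and 25.7% to 60.8% in CON liver. What part these have in the order of the tissues was not tested. The number of collagen genes with a mean of at least 0.5 FPKM over the 6 libraries of a tissue was 30 in eWAT, 24 in muscle and 17 in liver, and 14, 6 and 3 of them reached 10 FPKM. Below 0.5 FPKM in the mean of every tissue were 10 genes. These were *Col2a1*, *Col11a1*, *Col9a1*, *Col9a2*, *Col9a3*, *Col10a1*, *Col19a1*, *Col17a1*, *Col25a1* and *Col26a1*, several of them known as cartilage or skin collagens, and their highest value in any library was 1.68 FPKM (*Col17a1* in HS3W). In liver, *Col6a4*, *Col9a1*, *Col10a1* and *Col19a1* had no fragment in any of the 6 libraries, where 3 fragments would be the limit that a count of 0 allows in a library.

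**Figure D1:**
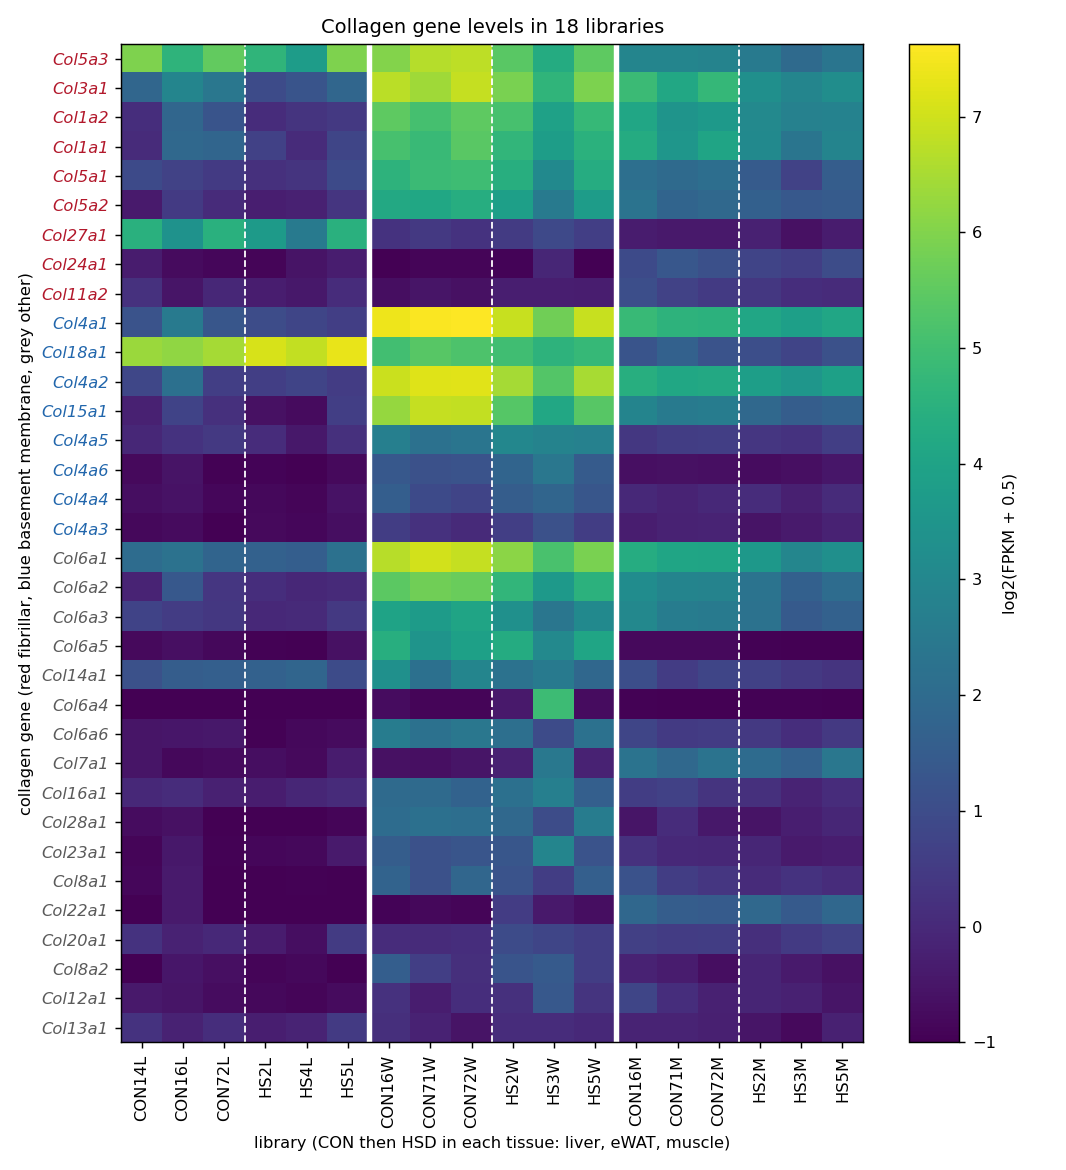
Heat map of log2(FPKM + 0.5) for the 34 collagen genes with a mean of at least 0.5 FPKM in any tissue (rows, ordered within class) in the 18 libraries (columns, CON left of each dashed line and HSD right of it). Col18a1, Col5a3 and Col27a1 are the bright rows of liver, eWAT is bright across most rows, and Col6a4 is bright in 1 library, HS3W.

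Each tissue had its own leading collagens. In CON eWAT, the highest were the basement membrane chains *Col4a1* (187 ± 14 FPKM, mean ± SD, n = 3) and *Col4a2* (140 ± 16), then *Col6a1* (116 ± 13), *Col15a1* (102 ± 23) and *Col3a1* (101 ± 17). These neighbours in the order lay within their spread of one another, except that *Col4a1* ranged from 171 to 197 FPKM and *Col4a2* from 121 to 150. In CON muscle, *Col4a1* (24.5 ± 2.4 FPKM) and *Col3a1* (24.4 ± 6.0) led with nearly equal means, followed by *Col4a2* (18.7 ± 2.0) and *Col6a1* (17.4 ± 2.2). In CON liver, *Col18a1* (80.8 ± 7.5 FPKM), the source chain of endostatin, was above all others, then *Col5a3* (43.97 ± 19), a type V chain, and *Col27a1* (17.8 ± 6.8), a minor fibrillar collagen. *Col18a1* alone made 47.0% of the summed collagen FPKM of CON liver, so that basement membrane genes made 51.4% ± 6.0 of it although type IV chains were low there. In eWAT the basement membrane class made 46.8% ± 2.2 of the summed FPKM and the fibrillar class 31.1% ± 2.4, and in muscle the fibrillar class led with 41.3% ± 3.4 against 31.5% ± 2.0.

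Between tissues of CON mice, most of the 30 collagen genes tested were higher in eWAT. Against liver, 23 were called higher in eWAT and 2 lower, where 62.1% of the 12637 genes tested were called higher and 7.26% lower. The largest differences were those of *Col15a1* (log2 6.40, SE 0.26), *Col4a2* (5.92, SE 0.36) and *Col4a1* (5.87, SE 0.33), with adjusted p from limma of 8.16e-08, 6.14e-07 and 3.50e-07. The 2 genes lower in eWAT were *Col27a1* (log2 −3.78, SE 0.27) and *Col18a1* (−1.12, SE 0.19). Against muscle, eWAT was called higher for 23 collagen genes (background 46.9%) and lower for 4 (background 7.98%). *Col6a5*, a chain of type VI, differed most, at 20.6, 10.6 and 14.4 FPKM in CON eWAT and 0.0882, 0.0807 and 0.0760 in CON muscle (log2 4.70, SE 0.21, adjusted p = 2.61e-07). The 4 genes higher in muscle were *Col7a1* of anchoring fibrils (log2 −2.74 for eWAT over muscle, SE 0.15), *Col22a1* (−2.51, SE 0.19), a FACIT known from myotendinous junctions, and the minor fibrillar chains *Col24a1* (−2.04, SE 0.17) and *Col11a2* (−1.35, SE 0.22). Muscle against liver gave 16 collagen genes called higher (background 35.1%) and 3 lower (background 15%), these being *Col18a1* (log2 −4.96, SE 0.19), *Col27a1* (−4.50, SE 0.27) and *Col5a3* (−2.47, SE 0.34).

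These tissue differences depend on how libraries are scaled. The median of all genes tested was shifted by log2 1.36 for eWAT against liver, 0.52 for muscle against liver and 0.93 for eWAT against muscle. Median-ratio scaling brought these medians to −0.03, 0.08 and 0.07. With it, 17 of 29 collagen genes were called higher (background 20.6%) and 4 lower (21.2%) for eWAT against liver. For muscle against liver, 14 were higher (25%) and 4 lower (23.7%), and for eWAT against muscle 14 were higher (19.6%) and 4 lower (18.4%). Relative to the median shift, *Col5a3* (log2 1.12 as deposited) and *Col14a1* (1.39) were not higher in eWAT than in liver, with −0.53 and −0.06 under median-ratio scaling. The other tissue differences named above kept their sign under this scaling.

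On the high-salt diet, collagen RNA took a smaller share of the library in eWAT and muscle. The share was 0.694%, 0.747% and 0.810% in the CON eWAT libraries and 0.484%, 0.277% and 0.458% in the HSD ones, a ratio of HSD to CON means of 0.541. In muscle it was 0.158%, 0.118% and 0.131% in CON and 0.0855%, 0.0627% and 0.0801% in HSD, a ratio of 0.560. In both tissues every HSD library was below every CON library, and the exact permutation p, 2-sided, was 0.1, the smallest that 3 against 3 allows. In liver the groups overlapped, with 0.143%, 0.113% and 0.143% in CON and 0.142%, 0.107% and 0.200% in HSD (exact permutation p = 0.9). Adjusted over the 3 tissues (Benjamini-Hochberg), these exact p-values were 0.15, 0.15 and 0.9. In eWAT, adipocyte marker sums were 17673 to 18836 FPKM in CON and 23069, 7515 and 24339 in HS2W, HS3W and HS5W, and skeletal muscle marker sums were 9.25 to 19.1 in CON and 29.7 to 46.9 in HSD, with no overlap. What part these have in the collagen share was not tested. In bulk RNA, fewer cells of a type and less collagen RNA per cell cannot be told apart.

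**Figure D2:**
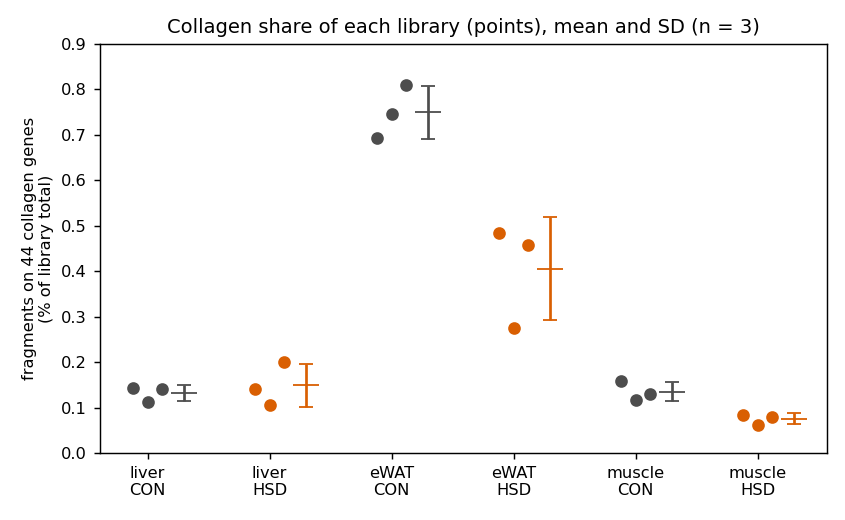
Share of each library's fragments on the 44 collagen genes, in percent (y axis from 0), for CON (grey) and HSD (orange) in each tissue. Points are libraries and bars show mean and SD (n = 3). HSD points lie below all CON points in eWAT and muscle and overlap them in liver.

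In muscle, 23 of the 24 collagen genes tested had a lower mean in HSD, where 60.8% of the 10834 genes tested did, and 1 had a higher mean (39.2%). The median log2 fold change of the 24 was −0.53, against −0.06 for all genes. By the full call, 1 collagen gene fell, *Col3a1*, and 0 rose, where 0.222% of all genes were called lower and 0.102% higher. At an unadjusted p under 0.05 from limma, 16 collagen genes were lower (background 12%) and 0 were higher (background 4.29%), and in 17 of the 24 every HSD library was below every CON library (background 15.6%), while in 0 every HSD library was above (6.72%).

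*Col3a1*, the chain of type III fibers of compliant tissues, was at 28.9, 17.6 and 26.6 FPKM in the CON muscles and at 9.40, 7.04 and 8.87 in the HSD muscles, which rest on 897 to 3762 fragments a library. The groups were well separated, and *Col3a1* fell by 1.46 on the log2 scale (SE 0.19, limma adjusted p = 0.0160), a fold of 2.74. The call held in 11 of 16 alternatives, with adjusted p between 0.00219 and 0.202. *Col1a1*, the alpha 1 chain of type I collagen, was at 19.1, 10.99 and 15.9 FPKM in CON and 7.97, 4.56 and 7.001 in HSD (log2 −1.17, SE 0.23, limma adjusted p = 0.0549). Its partner *Col1a2* was at 16.5, 10.6 and 12.3 FPKM in CON and 7.79, 6.45 and 6.66 in HSD (log2 −0.85, SE 0.17, adjusted p = 0.0522). Neither passed the threshold, although their groups did not overlap. The ratio of *Col1a1* to *Col1a2*, whose products share the type I helix, was 1.16 ± 0.13 in CON and 0.927 ± 0.191 in HSD, which overlapped.

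The minor fibrillar chains of muscle pointed the same way without a call. *Col5a1*, which regulates the start of fibrils, was at 3.96, 3.41 and 3.86 FPKM in CON and 2.26, 1.13 and 2.38 in HSD (log2 −0.85, limma adjusted p = 0.0946). *Col5a2* (log2 −0.51) and *Col5a3* (−0.60) had adjusted p of 0.154 and 0.104 by limma, and neither overlapped between groups. *Col11a2* and *Col24a1*, low in all muscles, were at log2 −0.55 and −0.33. All 8 fibrillar genes tested had a lower HSD mean, with a median of −0.72.

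Among basement membrane genes of muscle, *Col15a1*, which bridges basement membranes to the fibrils around them, differed most. It was at 6.88, 5.43 and 5.63 FPKM in CON and 3.28, 2.43 and 2.78 in HSD (log2 −0.96, SE 0.14, limma adjusted p = 0.0227), so it passed the adjusted p and missed the fold threshold. *Col4a1* was at 27.3, 23.6 and 22.8 FPKM in CON and 16.5, 13.99 and 16.9 in HSD (log2 −0.62, SE 0.13, adjusted p = 0.0635). *Col4a2* was at 20.9, 17.1 and 18.0 in CON and 13.8, 11.02 and 14.46 in HSD (−0.50, SE 0.14, adjusted p = 0.127). Both chains of the major type IV network were thus lower in every HSD muscle than in any CON muscle. *Col4a5* of the minor network overlapped between the groups, at 0.809, 0.993 and 1.01 FPKM in CON and 0.783, 0.688 and 1.02 in HSD (log2 −0.12).

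The type VI chains of muscle, which are mutated in Bethlem and Ullrich muscle disease, were lower by similar amounts. *Col6a1* was at 19.8, 16.5 and 15.8 FPKM in CON and 11.54, 7.28 and 9.22 in HSD (log2 −0.88, SE 0.17, limma adjusted p = 0.0514). *Col6a2* was at 8.70, 6.92 and 6.70 in CON and 4.37, 2.65 and 3.66 in HSD (−0.98, SE 0.17, adjusted p = 0.0430), past the adjusted p and short of the fold. *Col6a3*, the largest of the 3 chains, was at 7.56, 5.66 and 5.37 in CON and 4.25, 2.25 and 2.72 in HSD (−0.93, SE 0.21, adjusted p = 0.0768). The groups did not overlap for these 3 genes. *Col6a6* was lower by less, at log2 −0.28. The single gene with a higher HSD mean was *Col22a1*, at 3.19, 2.44 and 2.31 FPKM in CON and 3.31, 2.21 and 3.22 in HSD (log2 0.11), with overlapping groups, and *Col7a1* overlapped as well (log2 −0.11).

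The number of collagen DEGs in muscle varied with single libraries. A fit with the replicate number as a block, a pairing chosen from these same data and given by no label, called 2 collagen genes. They were *Col1a1* (limma adjusted p = 0.00273) and *Col3a1* (adjusted p = 0.00219), of 54 genes in all. The p-values of this fit do not allow for that choice. In the same fit, where 0.36% of genes were called lower, *Col15a1* (0.00806), *Col6a2* (0.0125), *Col6a3* (0.0139), *Col6a1* (0.0140), *Col1a2* (0.0140), *Col4a1* (0.0298) and *Col5a1* (0.0332) also passed the adjusted p and missed the fold threshold. Limma voom on the recovered fragments called 5 (background 0.463%), which were *Col1a1*, *Col3a1*, *Col6a2*, *Col6a3* and *Col15a1*. Without HS2M, 6 were called (background 0.442%), the same 5 and *Col6a1*, whereas none was without CON16M, CON72M, HS3M or HS5M, and 1, *Col3a1*, was called without CON71M.

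**Figure D3:**
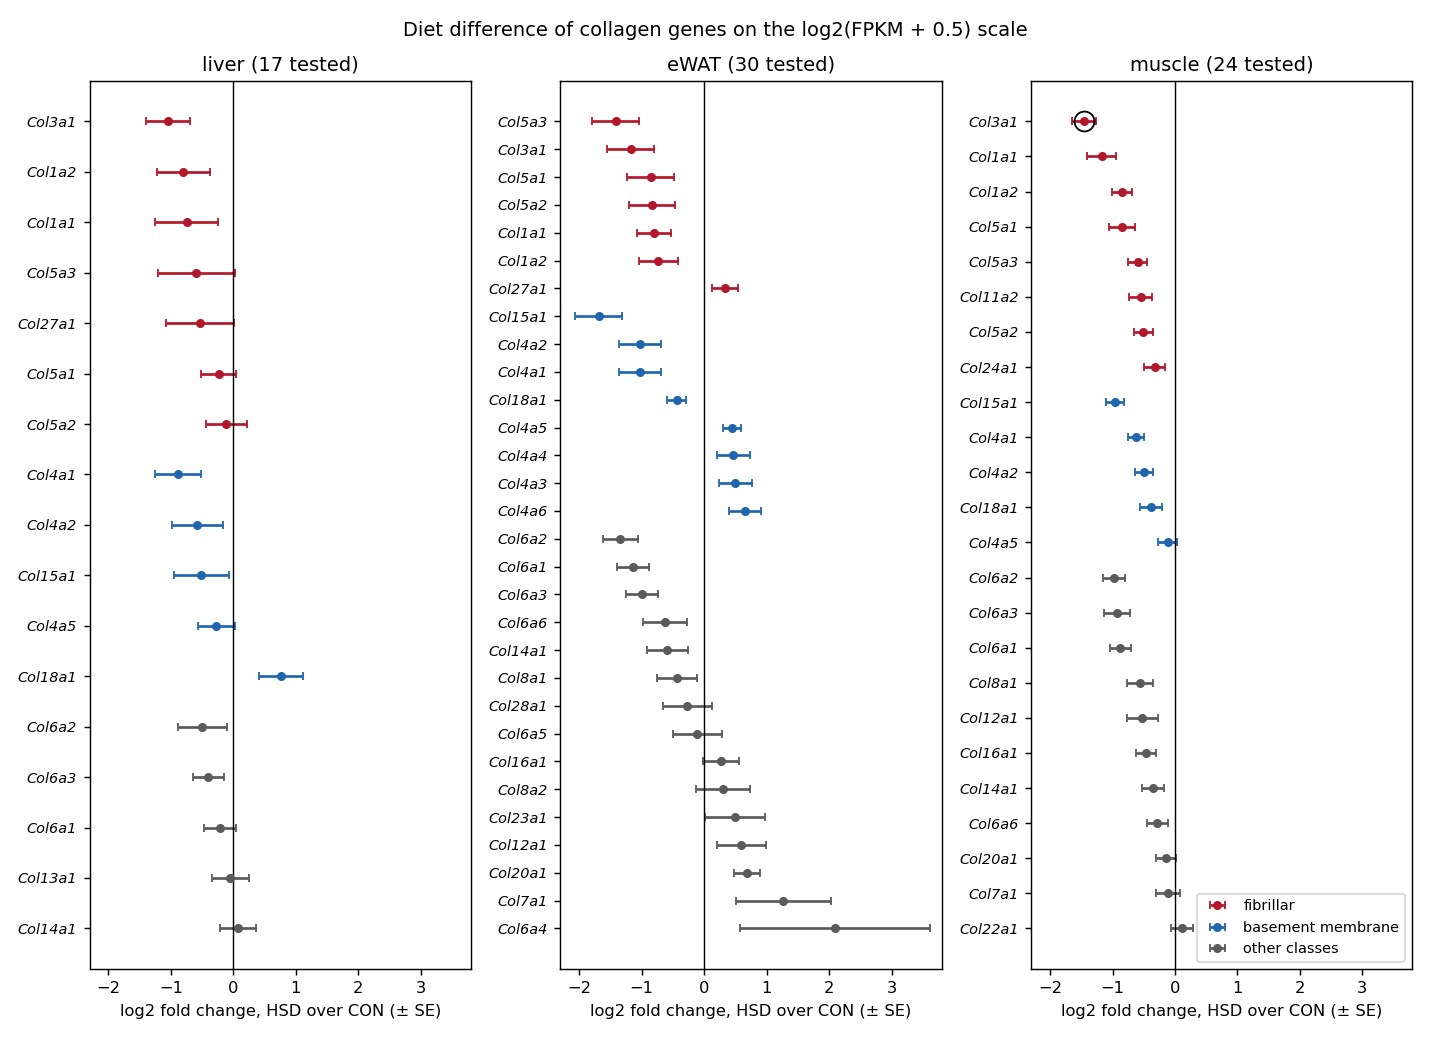
Log2 fold change of HSD over CON on the log2(FPKM + 0.5) scale (x axis, ± SE from limma) for the collagen genes tested in each tissue, grouped by class (red fibrillar, blue basement membrane, grey other). The ringed point is Col3a1 in muscle, the 1 gene called. In muscle 23 of 24 points lie left of 0, in eWAT 18 of 30 and in liver 15 of 17.

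In eWAT, the abundant collagens were lower in HSD and several minor type IV chains were higher, and the main limma fit called no gene of the tissue a DEG. The study reported DEGs in eWAT and in liver, by DESeq2 at the same thresholds. Of 30 collagen genes tested, 18 had a lower HSD mean (background 40.9%) and 12 a higher one (59.1%). Limma called 0 of the 13740 genes tested (0% in either direction), with a smallest adjusted p of 0.083, and voom on recovered fragments called 0 as well. At an unadjusted p under 0.05, 10 collagen genes were lower (background 7.55%) and 3 higher (9.18%). In 13 the HSD libraries were all below the CON libraries (background 12.4%), and in 7 all above (16.2%). Of the genes with a higher mean, *Col6a4* and *Col7a1* reached the minimum of 0.5 FPKM through the library HS3W. Without HS3W, 28 collagen genes were tested, of which 18 had a lower HSD mean (background 43.8%) and 10 a higher one (56.2%), 13 had both HSD libraries below (20.5%) and 5 both above (26.2%), and the share of collagen genes above was under that of all genes. The median log2 fold change was −0.44 over the 30, against 0.08 for all genes.

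*Col15a1* had the largest lower difference in eWAT. It was at 76.1, 117 and 114 FPKM in CON and 40.2, 17.4 and 41.4 in HSD (log2 −1.69, SE 0.38, limma adjusted p = 0.152). *Col5a3*, which was far above the other type V chains here, was at 64.9, 101 and 108 FPKM in CON and 42.6, 19.4 and 43.9 in HSD (−1.42, SE 0.37, adjusted p = 0.180). In each case HS3W was the lowest library, and HS2W and HS5W were close to each other and still below every CON library. *Col6a2* was at 43.5, 53.9 and 50.03 FPKM in CON and 24.8, 12.1 and 22.8 in HSD (−1.34, SE 0.28, adjusted p = 0.146). *Col6a1* was at 104, 130 and 115 in CON and 68.7, 35.4 and 59.1 in HSD (−1.14, SE 0.26, adjusted p = 0.155), and *Col6a3* had a log2 difference of −0.99 (SE 0.25). *Col6a6* was at 5.60, 4.19 and 4.83 in CON and 3.96, 1.47 and 4.14 in HSD (−0.63), while *Col6a5* overlapped, at 20.6, 10.6 and 14.4 in CON and 19.1, 7.78 and 16.4 in HSD. The other multiplexin, *Col18a1*, was at 32.1, 41.7 and 36.9 FPKM in CON and 31.0, 23.4 and 27.1 in HSD (−0.44, SE 0.15, adjusted p = 0.249), which is a smaller difference than that of *Col15a1*. The ratio of *Col6a1* to *Col6a2* was 2.37 ± 0.05 in CON and 2.76 ± 0.16 in HSD, and in muscle 2.34 ± 0.06 and 2.63 ± 0.11, with no overlap in either tissue.

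The fibrillar genes of eWAT followed. *Col3a1* was at 105, 83.2 and 116 FPKM in CON and 58.7, 24.2 and 60.4 in HSD (log2 −1.18, SE 0.38, limma adjusted p = 0.232). *Col1a1* was at 34.3, 28.4 and 42.3 in CON and 25.3, 13.4 and 22.1 in HSD (−0.80, SE 0.27, adjusted p = 0.245), again without overlap. *Col1a2* overlapped between the groups, since HS2W (34.5 FPKM) was above CON71W (33.6). *Col5a1* was at 23.5, 28.9 and 30.04 FPKM in CON and 20.9, 7.95 and 19.6 in HSD (log2 −0.86, SE 0.37, limma adjusted p = 0.321), and *Col5a2* at 17.8, 17.2 and 20.02 in CON and 14.3, 5.27 and 13.0 in HSD (−0.84, SE 0.37, adjusted p = 0.320). All HSD libraries were below all CON libraries for both, with HS3W the lowest by far. Of the 7 fibrillar genes tested, *Col27a1* was the exception in sign, at 0.714, 0.856 and 0.702 FPKM in CON and 0.906, 1.36 and 1.03 in HSD (log2 0.34).

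The type IV chains of eWAT differed in sign by network, with none called. *Col4a1* was at 171, 191 and 197 FPKM in CON and 120, 53.3 and 118 in HSD (log2 −1.03, SE 0.33, limma adjusted p = 0.235), and *Col4a2* at 121, 148 and 150 in CON and 87.9, 39.4 and 90.4 in HSD (−1.03, SE 0.34, adjusted p = 0.240). The ratio of the 2 chains was 1.34 ± 0.06 in CON and 1.34 ± 0.03 in HSD. The chains of the minor networks, known best from kidney, lung and smooth muscle, had higher HSD means. Of all genes tested in eWAT, 59.1% had a higher HSD mean and 16.2% had every HSD library above every CON library. *Col4a5* was at 6.03, 4.13 and 4.65 FPKM in CON and 7.41, 6.72 and 6.40 in HSD (log2 0.45, SE 0.15, adjusted p = 0.247), and *Col4a6* at 2.10, 1.68 and 1.82 in CON and 2.95, 4.85 and 2.27 in HSD (0.65, SE 0.26, adjusted p = 0.289). *Col4a3* was at 0.970, 0.662 and 0.525 in CON and 1.00, 1.71 and 0.989 in HSD (0.50), and *Col4a4* at 2.498, 1.41 and 1.20 in CON and 2.40, 3.003 and 2.002 in HSD (0.46), the last with overlap. The alpha 3 to alpha 6 chains made 3.82%, 2.27% and 2.31% of the type IV FPKM in CON eWAT and 6.21%, 14.9% and 5.30% in HSD eWAT, so that the groups did not overlap (exact permutation p = 0.1, the smallest possible). In muscle the share was 4.29% ± 0.70 in CON and 5.65% ± 0.71 in HSD (exact permutation p = 0.1), and in liver 18.0% ± 6.6 and 23.2% ± 11.2 (exact permutation p = 0.5). Adjusted over the 3 tissues, these p-values were 0.15, 0.15 and 0.5. The summed FPKM of the alpha 3 to alpha 6 chains overlapped between the groups in muscle, at 1.75, 1.94 and 2.07 in CON and 1.63, 1.43 and 2.16 in HSD. Their larger share there thus went with lower *Col4a1* and *Col4a2*.

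**Figure D4:**
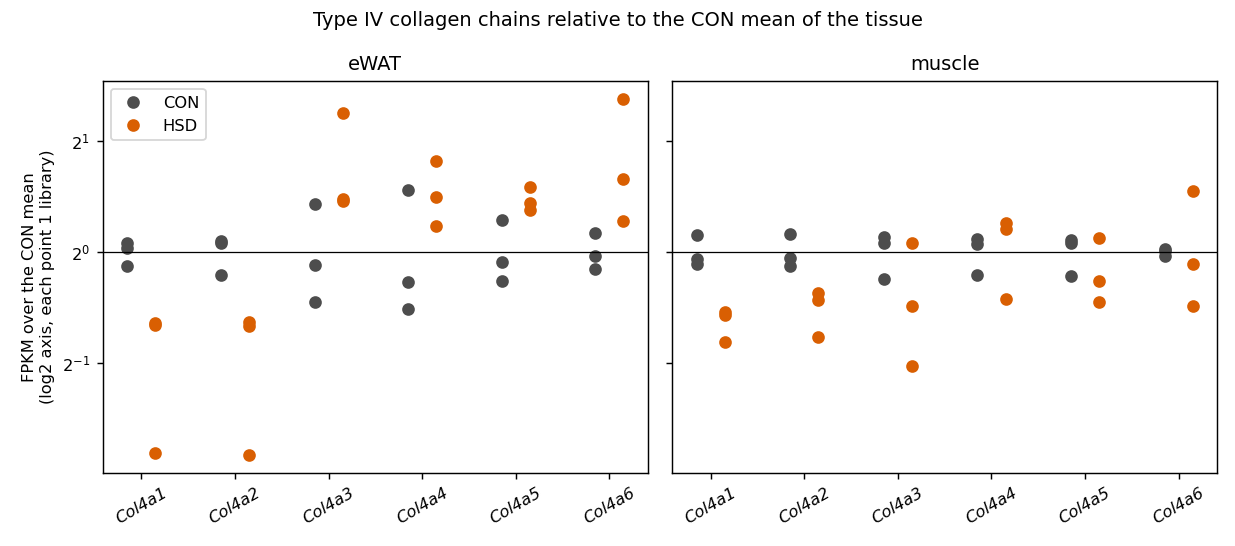
FPKM of the 6 type IV chains relative to the CON mean of the tissue (y axis on a log2 scale, 1 being the CON mean) in eWAT and muscle, each point 1 library (CON grey, HSD orange). In eWAT the HSD points of Col4a1 and Col4a2 lie below all CON points and those of Col4a3, Col4a5 and Col4a6 above them, and in muscle Col4a1 and Col4a2 are again below.

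Outside these classes the FACIT collagen *Col20a1* was at 0.558, 0.552 and 0.596 FPKM in CON eWAT and 1.47, 1.26 and 0.966 in HSD eWAT (log2 0.69, SE 0.21, limma adjusted p = 0.219). Its HSD libraries were all above the CON libraries, and HS3W was not the highest of them. The genes of eWAT with every HSD library above were *Col4a3*, *Col4a5*, *Col4a6*, *Col20a1* and *Col27a1*, with and without HS3W, and *Col6a4* and *Col7a1*, which were tested only with HS3W in the fit.

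The library HS3W bears on the eWAT values in both directions. *Col6a4* was at 29.9 FPKM in HS3W and at 0.0423 to 0.249 in the other 5 eWAT libraries, and *Col7a1* at 4.96 in HS3W and 0.141 to 0.386 in the others. *Col23a1* (7.14 FPKM, others 1.71 to 2.39) and *Col12a1* (2.08, others 0.312 to 0.723) were also highest in HS3W, the library with the epididymal markers. Without HS3W, limma called 3 collagen genes lower, *Col15a1* (log2 −1.29, SE 0.19, adjusted p = 0.0269), *Col6a2* (−1.03, SE 0.11, adjusted p = 0.0212) and *Col5a3* (−1.04, SE 0.22, adjusted p = 0.0483), among 28 tested, where 0.989% of 13245 genes were called lower. *Col4a1*, *Col4a2*, *Col6a1*, *Col6a3* and *Col3a1* then had adjusted p between 0.0243 and 0.0407 with log2 differences of −0.64, −0.64, −0.86, −0.72 and −0.75. Smaller differences with smaller errors thus followed from leaving it out. *Col4a5* (0.46), *Col4a6* (0.39), *Col4a3* (0.31) and *Col4a4* (0.34) stayed positive without HS3W, with adjusted p from 0.137 to 0.452. Without HS2W, the library with the most germ cell marker RNA, limma called 0 collagen genes. Without HS3W, *Col6a5* was at log2 0.27 where it was at −0.11 with it, with overlapping groups in both.

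In liver, 15 of 17 collagen genes tested had a lower HSD mean (background 37.3%) and 2 a higher one (62.7%), with a median log2 fold change of −0.50 against 0.13 for all genes. The main limma fit called no gene of liver a DEG, where the study reported DEGs by DESeq2. Limma called 0 of 10317 genes (0% in either direction, smallest adjusted p 0.092), and voom called 0 collagen genes too. At an unadjusted p under 0.05, 2 were lower, *Col3a1* and *Col4a1* (background 1.96%), and 0 higher (3.78%). In 1 gene, *Col4a1*, the HSD libraries were all below the CON libraries (background 3.47%), and in 1, *Col18a1*, all above (8.62%).

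*Col18a1* was the exception of the liver, as it was the most abundant collagen there and had a higher HSD level in the deposited FPKM. It was at 80.4, 73.5 and 88.6 FPKM in CON and 138, 114 and 162 in HSD, from 4304 to 10129 fragments a library (log2 0.76, SE 0.35, limma adjusted p = 0.764). Mitochondrial genes took 60.8%, 25.7% and 37.8% of fragments in these CON libraries and 16.3%, 15.4% and 44.4% in the HSD ones. Over the alternatives apart from leaving out 1 library, its log2 difference ran from 0.39 to 0.76. The lowest of these, 0.39, was the fit with mitochondrial genes left out. On that scale the CON and HSD groups overlapped. What part the mitochondrial share has in this difference was not tested. *Col5a3* was at 61.4, 23.7 and 46.8 FPKM in CON and 24.4, 13.0 and 61.0 in HSD, and *Col27a1* at 22.0, 9.93 and 21.5 in CON and 12.5, 5.39 and 21.6 in HSD, with wide overlap. Both were highest in CON14L, CON72L and HS5L, where mitochondrial genes took 60.8%, 37.8% and 44.4% of fragments, against 15.4% to 25.7% in the other liver libraries, and what part this share has in their values was not tested.

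Several low fibrillar and type IV chains of liver were highest in CON16L. *Col3a1* was at 3.09, 7.08 and 4.89 FPKM in CON and 1.46, 1.85 and 3.13 in HSD (log2 −1.04, SE 0.35, limma adjusted p = 0.764). *Col4a1* was at 1.81, 5.27 and 1.96 in CON and 1.504, 1.24 and 1.00 in HSD (−0.88, SE 0.37, adjusted p = 0.764). *Col1a1* was at 0.539, 3.26 and 2.998 in CON and 1.08, 0.543 and 1.25 in HSD (−0.75), and *Col4a2* at 1.29, 4.03 and 1.02 in CON and 1.00, 1.19 and 0.954 in HSD (−0.58). *Col1a2* was at 0.601, 3.13 and 1.84 in CON and 0.571, 0.729 and 0.838 in HSD (−0.80). CON16L, the library with the skeletal muscle markers, was the highest of the 6 for all 5. *Col5a1*, at 1.42, 1.15 and 0.894 FPKM in CON and 0.650, 0.720 and 1.44 in HSD (−0.23), and *Col4a5*, at 0.468, 0.691 and 0.862 in CON and 0.571, 0.229 and 0.644 in HSD (−0.27), were not highest in CON16L. *Col6a2* was highest there, at 0.409, 2.09 and 0.788 FPKM in CON and 0.599, 0.463 and 0.520 in HSD (−0.50), and *Col6a1*, at 3.68, 4.26 and 2.94 in CON and 2.69, 2.51 and 4.11 in HSD (−0.21), was more even. The smallest differences were those of *Col14a1*, a FACIT, at 1.68, 2.40 and 2.56 FPKM in CON and 2.74, 3.04 and 1.47 in HSD (0.07), and the transmembrane *Col13a1*, at 0.700, 0.386 and 0.584 in CON and 0.328, 0.411 and 0.874 in HSD (−0.05), and the groups overlapped for both. Without it, *Col3a1* was at −0.78 and *Col4a1* at −0.46, and 0 of 16 collagen genes tested had an unadjusted p under 0.05 by limma. *Col18a1* was at log2 0.69 without CON16L, with the groups still apart in the deposited FPKM.

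A difference between tissues in the diet effect was tested in 1 limma model of all 18 libraries, for 32 collagen genes. The model did not pair the tissues that came from the same mouse. By limma, 0 of them passed an adjusted p of 0.05 in any of the 3 comparisons. Of the 13067 genes in the model, 0.0842% passed with a higher and 0.704% with a lower effect in eWAT than in liver, 0.023% and 0.0383% in muscle than in liver, and 0% and 0% in eWAT than in muscle. At an unadjusted p under 0.05, the diet effect in eWAT was higher than in liver for 4 collagen genes (background 5.84%) and lower for 3 (7.87%). It was higher in eWAT than in muscle for 4 (5.67%) and lower for 0 (2.33%), and higher in muscle than in liver for 0 (1.26%) and lower for 1 (6.69%). *Col18a1* came nearest, with a difference in diet effect of log2 −1.20 for eWAT less liver (SE 0.28, limma adjusted p = 0.0570) and −1.14 for muscle less liver (SE 0.28, adjusted p = 0.258). With the libraries that the study's heat maps use, 6 collagen genes passed for eWAT against liver, *Col18a1*, *Col20a1*, *Col6a2*, *Col4a6*, *Col4a2* and *Col27a1*, and 2 for muscle against liver, *Col18a1* and *Col27a1*. The 6 were 3 with a higher effect (background 8.03%) and 3 with a lower one (15.7%), and the 2 were 1 of each kind (1.78% and 11.9%). Liver has 2 libraries in each group of that model.

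Genes that act with collagens were followed as 7 lists, and limma called 0 of their members in any tissue. Of 19 genes of collagen chain modification and folding, 18 were tested in muscle with a median log2 difference of −0.19, 18 in eWAT with −0.12 and 13 in liver with 0.10. *Serpinh1*, the collagen-specific chaperone, was at 27.0 ± 2.6 FPKM in CON muscle and 20.5 ± 4.0 in HSD muscle, and at 206 ± 24 and 110 ± 42 in eWAT. Of 13 genes of procollagen processing and cross-linking, 8 were tested in muscle with a median of −0.33, 11 in eWAT with −0.28 and 5 in liver with −0.39. The 13 fibril-associated matrix proteins, all tested, had medians of −0.21, −0.25 and −0.38 in this order. *Sparc*, a collagen-binding matrix protein, was at 803 ± 77 FPKM in CON eWAT and 408 ± 176 in HSD eWAT. The 10 basement membrane partners, laminins, nidogens and perlecan among them, had a lower HSD mean in 10 of 10 in muscle (background 60.8%), 7 of 10 in eWAT (40.9%) and 8 of 8 tested in liver (37.3%), with medians of −0.38, −0.28 and −0.43. Of 13 collagen degradation genes, 10, 11 and 4 were tested, with medians of −0.28, −0.45 and −0.12. Of 9 collagen receptors, 5, 8 and 4 were tested, with medians of −0.01, −0.03 and 0.15. Of 14 genes of the TGF-beta pathway, 14, 14 and 11 were tested, with medians of 0.0024, 0.09 and −0.02. Each of these sets of values is in the order muscle, eWAT and liver. The medians of all genes tested were −0.06, 0.08 and 0.13 in this order. At an unadjusted p under 0.05, taking the 7 lists in the order given, 4, 3, 5, 5, 2, 0 and 1 genes were lower in HSD muscle (background 12%) and 0, 0, 0, 0, 1, 0 and 1 higher (4.29%). In eWAT the numbers were 1, 1, 2, 1, 2, 0 and 1 lower (7.55%) and 1, 0, 1, 1, 0, 1 and 1 higher (9.18%), and in liver 0, 0, 0, 1, 0, 0 and 0 lower (1.96%) and 1, 0, 0, 0, 0, 0 and 0 higher (3.78%).

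Markers of the cells that make collagen were set beside these values. In muscle, the 10 fibroblast markers summed to 84.9 to 101 FPKM in CON and 70.7 to 83.2 in HSD. Of them, 8 were lower (background 60.8%), 1 at an unadjusted limma p under 0.05 (background 12%), with a median log2 difference of −0.17. The 10 endothelial markers summed to 94.6 to 110 in CON muscle and 72.2 to 108 in HSD muscle (median −0.20). Macrophage markers summed to 56.8 to 91.1 in CON muscle and 40.7 to 44.1 in HSD muscle, with 7 of 9 tested lower at an unadjusted p under 0.05 (background 12%) and 1 DEG (0.222%), *C1qa*, at 10.9 ± 2.2 and 4.87 ± 0.17 FPKM (log2 −1.07, limma adjusted p = 0.0213). The 10 skeletal muscle markers summed to 55853 to 62879 FPKM in CON muscle and 63351 to 70620 in HSD muscle. Of these markers, 7 had a higher HSD mean (background 39.2%) and 3 a lower one (60.8%), with a median log2 difference of 0.10. Among the 3, the fast myosin gene *Myh1* was a DEG (background 0.222%), at 742 ± 108 FPKM in CON and 372 ± 97 in HSD (log2 −1.01, limma adjusted p = 0.0453). In eWAT, the fibroblast sum was 385 to 550 FPKM in CON and 180 to 364 in HSD (median −0.47), the endothelial sum 393 to 447 and 152 to 501 (median −0.37), and the macrophage sum 595 to 881 and 263 to 568 (median −0.82). Of the 10 macrophage markers, 8 were lower in HSD eWAT at an unadjusted limma p under 0.05 (background 7.55%). The hepatocyte markers summed to 1087 to 1588 FPKM in CON eWAT and to 2147, 671 and 2577 in HS2W, HS3W and HS5W. Most of that sum was *Cyp2e1*, at 1112 ± 253 FPKM in CON and 1787 ± 997 in HSD. Of the 10 markers, 8 were lower in HSD at an unadjusted p under 0.05 (background 7.55%), with *Alb* at 110 ± 57 FPKM in CON and 5.68 ± 2.28 in HSD, and *Cyp2e1* and *Hnf4a* overlapped between the groups. In liver, the hepatic stellate cell markers summed to 39.2 to 177 in CON and 46.3 to 102 in HSD (median 0.18), and the fibroblast markers to 4.55 to 39.3 and 6.43 to 9.46, with the highest of both in CON16L. The stellate list, which holds *Des* and *Dcn*, summed to 721 to 942 FPKM in muscle, where 3 of its genes reached a mean of 1 FPKM. Its sum is thus not particular to stellate cells. Macrophage markers of liver summed to 40.2 to 62.5 FPKM in CON and 22.4 to 36.3 in HSD. Of the 8 tested there, 3 were lower in HSD at an unadjusted limma p under 0.05 (background 1.96%). Mesothelial markers summed to 27.8 to 50.4 in CON eWAT and 45.3 to 163 in HSD eWAT, with the highest in HS3W, and to at most 6.41 in liver and 1.81 in muscle. The part of these markers in the collagen values was not tested.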

How the data were processed

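RNA of liver, eWAT and muscle of CON and HSD mice was sequenced from TruSeq stranded total RNA libraries. Per the labels and the study's methods, cutadapt was used for trimming and HISAT2 for alignment (build mm10). The authors then obtained FPKM through cuffdiff and Ensembl gene models, and the deposited table gives them for 21899 genes in 18 libraries. The annotation release is not given in the sources used here. FPKM times exon length (GENCODE M21) and library total gave whole fragments in all libraries for 18330 of the 18822 genes above 0 (tolerance 0.02), and for 399 more at another length. These fragments gave the collagen and mitochondrial shares of the libraries, and so the exact permutation test of the collagen share. They also entered voom, an alternative test, while the main limma fits used FPKM.

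The main test was limma 3.58.1 (R 4.3.3) on log2(FPKM + 0.5), within a tissue for diet, over the 9 CON libraries for tissue, and over all 18 for the difference in diet effect. Genes with a mean of at least 0.5 FPKM were tested. Exact permutation tests used scipy 1.17.1 with Python 3.11.15, numpy 2.4.6 and pandas 2.3.3, and plots used matplotlib 3.10.9. Of 200 genes changed by log2 2 in simulated data, limma recovered 100% for muscle, 100% for eWAT and 86.5% for liver. Those percentages hold for the simulated spread only. Among the deposited eWAT values, limma called 0 of 13740 genes, although log2 differences ran from −4.83 to 5.03. The simulation therefore cannot give the power of the diet fits.

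Values per library were given for collagen genes called, for the 3 most abundant in a tissue, for chains of types I, III, IV, V and VI, and for the 3 largest and 3 smallest differences, with low chains summarised. The members, classes and lists were chosen with earlier results of these data known. Same-numbered CON and HSD muscle libraries deviated together over genes (correlations 0.383, 0.177 and 0.184). The main fit did not pair them. An alternative fit took the replicate number as a block from the data alone, as no label states a shared litter or day. In liver (−0.473, 0.396 and −0.213) and eWAT (−0.197, 0.061 and 0.414) the correlations had mixed signs. Other pseudocounts, filters, scalings, library weights, blocks, libraries and voom were tried.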

Additional observations from a re-analysis of the deposited data

How the results depend on the processing

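The log2 differences between diets of all collagen genes tested gave 1156 values under the alternatives. Of these, 1138 kept the sign of the reported value, and of the 18 that changed it 9 belonged to liver, 7 to eWAT and 2 to muscle. Brackets give the share of all genes tested that the same fit called in that direction. The number of collagen genes called lower in HSD muscle, 1 as reported (0.222%), was 3 with a pseudocount of 0.1 (0.351%), 0 with no filter on low FPKM (0.0137%), where more genes are tested, 2 with a mean of at least 1 FPKM (0.252%), 3 with mitochondrially encoded genes left out (0.28%), 3 with library weights (0.323%), 3 by adjusted p alone (0.665%), 2 with the replicate number as a block (0.36%) and 5 by voom (0.463%), and 0 to 6 with 1 library left out (0.0737% to 0.442%). In HSD eWAT it was 3 with library weights (1.17%) and 0 to 3 with 1 library left out (0% to 0.989%), and in HSD liver 3 with library weights (2.07%). With those weights limma called 926 genes in liver and 220 in eWAT, where it called 0 without them. In CON mice, median-ratio scaling gave 4 collagen genes lower in eWAT than in liver and 14 higher in eWAT than in muscle, and a mean of at least 1 FPKM left 1 lower in eWAT than in muscle. Collagen genes with a different diet effect in eWAT and liver numbered 1 with a pseudocount of 1, 1 with no filter and 6 with the study's libraries, where 0.788%, 0.557% and 23.8% of all genes differed in either direction. In muscle and liver there were 2 with the study's libraries (13.7%), and in eWAT and muscle 2 with library weights, both higher, where 7.37% of all genes were higher. The causes were not tested. Over all genes, the block took the calls in muscle from 35 to 54. It changed no other number of collagen genes called by over 1.5 times. Log2 differences that changed sign were those of *Col14a1* in liver (−0.014 with median-ratio scaling, −0.26 without mitochondrial genes, −0.090 to 0.33 with 1 library left out), *Col13a1* in liver (−0.17 to 0.095 with 1 library left out), *Col5a2* in liver (−0.32 to 0.0032), *Col6a5* in eWAT (0.35 with library weights, −0.36 to 0.27 with 1 library left out), *Col16a1* (−0.0056 to 0.55), *Col23a1* (−0.062 to 0.80), *Col28a1* (−0.65 to 0.15) and *Col8a2* (−0.010 to 0.70) in eWAT with 1 library left out, and *Col7a1* in muscle (0.028 with library weights, −0.31 to 0.064 with 1 library left out), none of them called. A difference under the fold threshold could not be called whatever its error, and low genes such as the type IV chains of liver rest on few fragments. Where a library is left out, the remaining 2 set the spread of their group together with the 3 of the other.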
